A study of Homo sapiens with 2 samples.

Results

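The miRNAs described here are those with a number from 5000 up to, but not including, 6700 in their name, of which the Agilent human miRNA array holds 189 among 2549 miRNAs in all. They were chosen by name from the targets listed in the scanner output of both arrays, and the rule itself uses names only. RNA came from exosomes, the small vesicles that cells release, of FaDu cells, an established human line of hypopharyngeal squamous cell carcinoma. Control cells (oe-NC) carried an NC vector and the overexpressing cells (oe-HOTTIP) a HOTTIP vector, so neither group was unmodified. The labels name lentivirus for both, whereas the methods describe pcDNA3.1 plasmids brought in with a lipid reagent, and which was used for these arrays is not settled. Each group is 1 array of 1 cell line, both arrays lay on 1 slide, and no difference between them has a replicate check or a p-value. The title and the treatment given for each array name one group while its free-text description names the other, so every direction below holds for the arrays as titled and would be the other way round if the descriptions hold. The array cannot measure HOTTIP itself, a long noncoding RNA, so these labels could not be checked against it.

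A miRNA is a short RNA that, held in an Argonaute protein, pairs with messenger RNAs mainly through its seed, the bases from position 2 to position 8, and lowers their translation or stability. Numbers are handed out in the order in which miRNAs are registered, so high numbers mark entries found late, mostly by deep sequencing, and many of them are scarce or known from few samples. A name that ends in 5p or 3p tells which arm of the hairpin precursor the miRNA comes from, and a name without a suffix was given where a single arm had been recorded. A letter after the number marks close relatives.

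The mature sequences of the 10 miRNAs that were detected on both arrays and differed at least 2-fold between them are shown first, since the comparison of the arrays turns on them. They are from RefSeq, build GRCh38.p14, which matched 171 of the 189 names, and are written 5′ to 3′ with the seed in capitals. The first 3 were higher on the array titled oe-HOTTIP and the other 7 were lower.
miR-6510-5p: cAGCAGGGgagagagaggaguc
miR-6126: gUGAAGGCccggcggaga
miR-5703: aGGAGAAGucgggaaggu
miR-6165: cAGCAGGAggugaggggag
miR-5188: aAUCGGACccauuuaaaccggag
miR-6090: gGGGAGCGaggggcggggc
miR-6515-3p: uCUCUUCAucuaccccccag
miR-6069: gGGCUAGGgccugcugccccc
miR-6124: gGGAAAAGgaagggggagga
miR-6089: gGAGGCCGggguggggcggggcgg

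No seed occurred more than once among these 10. miR-6510-5p and miR-6165, which stood at the opposite ends of the comparison, began with the same 7 bases, and their seeds differed only in the last base. The miR-6510-5p sequence lies at chr17:41517194-41517215 on the minus strand, inside the bounds of KRT15, a keratin gene of basal epithelial cells. miR-6165 lies at chr17:49510825-49510843 on the plus strand, inside the bounds of NGFR, the low-affinity nerve growth factor receptor gene, and of its antisense gene NGFR-AS1. miR-6090 lies at chr11:128522430-128522448 on the plus strand, inside the bounds of ETS1, a transcription factor gene. miR-6515-3p lies at chr19:12940521-12940540 on the plus strand, inside the bounds of CALR, the gene of the chaperone calreticulin. These positions and gene bounds are those of GRCh38.p14 and do not tell exon from intron.

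Most of the 189 miRNAs gave no signal that the scanner software called detected. On the array titled oe-NC 27 of them (14.3%) were detected and on the array titled oe-HOTTIP 29 (15.3%), against 328 (12.9%) and 390 (15.3%) of all 2549 miRNAs. Detected on both arrays were 22 (11.6%, against 10.2% of all miRNAs), 5 only on the array titled oe-NC, 7 only on the array titled oe-HOTTIP and 155 on neither. Over all 2549 miRNAs, 67 were detected only on the array titled oe-NC, 129 only on the array titled oe-HOTTIP and 2092 on neither. As a whole, these late-numbered miRNAs were thus detected about as often as the rest of the array.

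**Figure D1:**
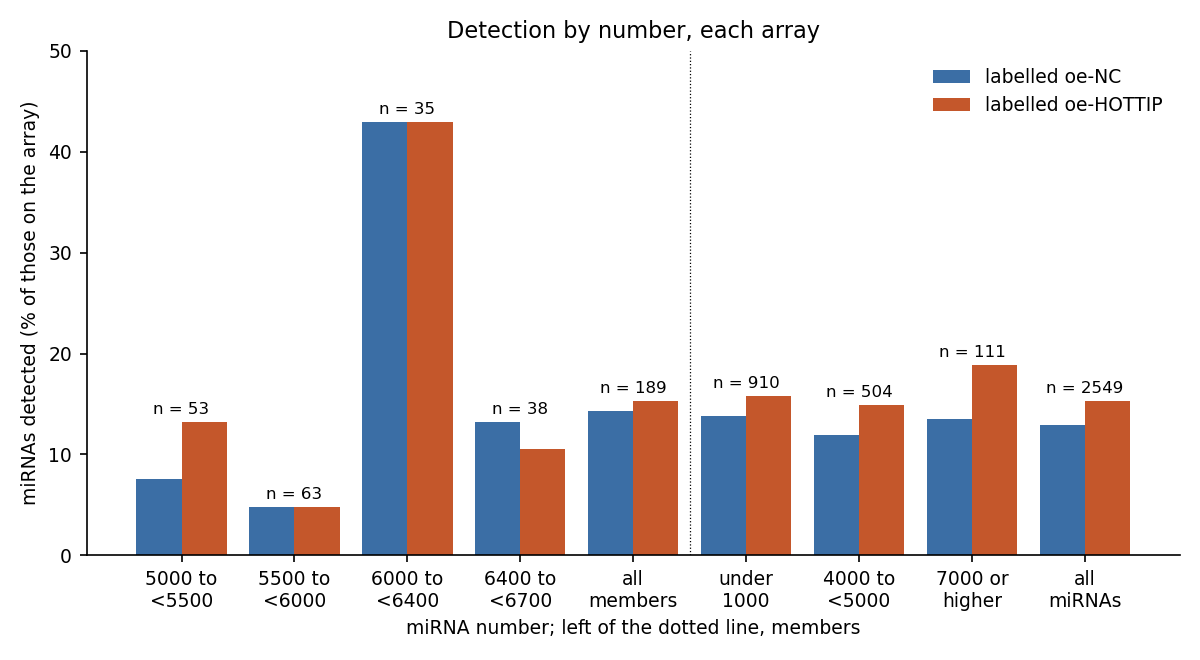
Share of miRNAs called detected on each array (vertical axis, % of those on the array), by miRNA number, with the number of miRNAs above each pair of bars. The miRNAs from 6000 to below 6400 stand at 42.9% on both arrays, while those from 5500 to below 6000 stand at 4.76%.

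Detection was uneven within the range. Of the 35 miRNAs numbered from 6000 to below 6400, 16 (45.7%) were detected on at least 1 array and 14 on both, so this stretch supplied 14 of the 22 miRNAs detected on both arrays. Of the 63 numbered from 5500 to below 6000, only miR-5703, miR-5739 and miR-5787 were detected (4.76%), each on both arrays. From 5000 to below 5500, 8 of 53 (15.1%) were detected on at least 1 array and 3 on both (miR-5001-5p, miR-5100 and miR-5188). From 6400 to below 6700, 7 of 38 (18.4%) were detected on at least 1 array and 2 on both (miR-6510-5p and miR-6515-3p).

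Names without an arm suffix led the detected list. Of the 85 such miRNAs 23 (27.1%) were detected on at least 1 array, against 8 of 52 5p arms (15.4%) and 3 of 52 3p arms (5.77%). Over all miRNAs of the array the shares were 18.9% without a suffix, 21.0% for 5p arms and 13.9% for 3p arms. Of the 22 miRNAs detected on both arrays, 19 have no arm suffix. All 35 miRNAs numbered from 6000 to below 6400 lack a suffix. They supplied 16 of the 23 without a suffix that were detected on at least 1 array, and 14 of the 19 detected on both. The higher share without a suffix was thus not separate from the detection by number given above.

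The detected miRNAs were rich in guanine and cytosine. The median GC content was 68.4% over the 20 miRNAs detected on both arrays that had a RefSeq sequence, 62.5% over 9 detected on 1 array and 47.8% over 142 detected on neither. Among all other miRNAs of the array the same medians were 59.1%, 59.1% and 50%. Guanine alone made up a median of 51.3% of the bases of the miRNAs detected on both arrays and 26.8% of those detected on neither. Among all other miRNAs these medians were 40.9% and 26.1%. A run of 4 guanines (GGGG, searched on the mature strand only) occurred in 8 of the 20 (40.0%) and in 12 of the 142 (8.45%). Among all other miRNAs it occurred in 51 of 198 (25.8%) detected on both arrays and in 155 of 1719 (9.02%) detected on neither. Over the whole array, 269 of the 2248 miRNAs with a sequence held such a run. miR-6090 and miR-6089 have a GC content of 89.5% and 91.7%. miR-5188 had the lowest GC content of the 10 miRNAs shown above, 47.8%. The median length was 20 bases for the miRNAs detected on both arrays and 22 for those detected on neither. Among all other miRNAs it was 22 in either case. The stretch from 6000 to below 6400 supplied 14 of the 22 miRNAs detected on both arrays. Its miRNAs detected on neither had from 19 bases (as in miR-6128 to miR-6132) to 24 bases (miR-6079 and miR-6081). The difference in length was thus not separate from the detection by number. These are descriptions of names and sequences, and whether base composition had a part in the signals was not tested.

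**Figure D2:**
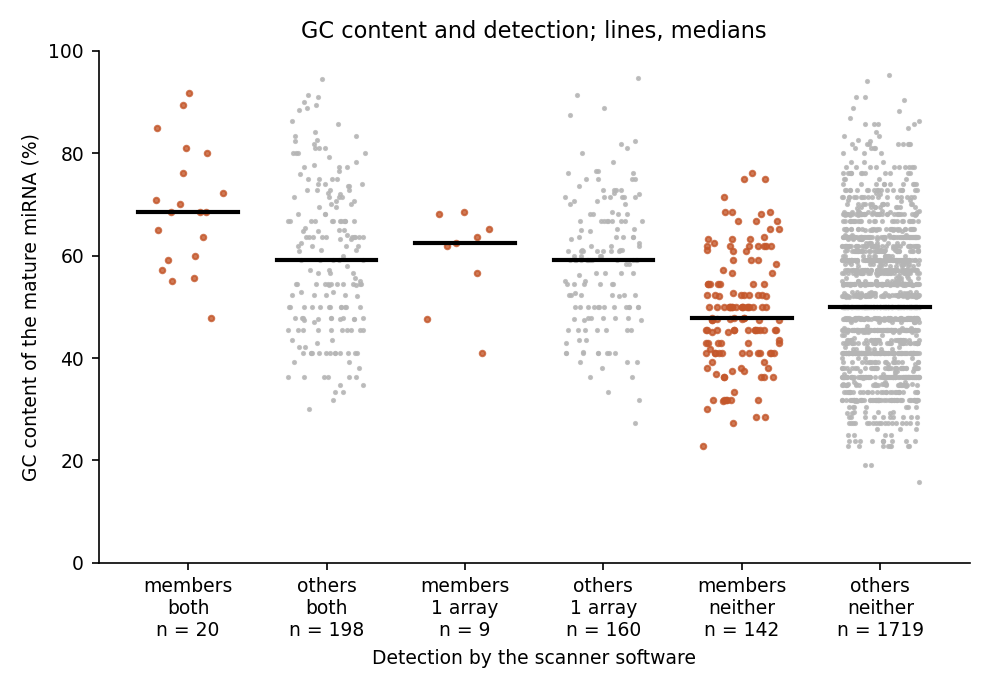
GC content of the mature miRNA (vertical axis, %) by detection, with the miRNAs numbered 5000 to below 6700 (members, orange) beside all others (grey); each point is 1 miRNA and each line a median. The medians of the members fall from 68.4% when detected on both arrays to 47.8% when detected on neither.

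For the comparison, background-subtracted intensities were scaled so that the 90th percentile of the 261 miRNAs detected on both arrays was the same on each array, and the difference is given on the log2 scale as the array titled oe-HOTTIP minus the array titled oe-NC. Intensities are given before that scaling. Before scaling, the array titled oe-HOTTIP was brighter, and log2 differences had a median of 0.67 for all 261 miRNAs and 0.59 for the 22 described here, and the scaling takes away 0.65. The spread quoted for a difference combines the SD over the spots of both arrays. It covers technical error within an array and leaves out the variation between cultures, extractions and labelling reactions.

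Among the 22 miRNAs detected on both arrays, 7 (31.8%) were at least 2-fold lower on the array titled oe-HOTTIP. Another 3 (13.6%) were at least 2-fold higher there. The largest spread over spots among the 22 was 0.97, under 2-fold, so each of these 10 had to differ by more than its spread. Over all 261 miRNAs detected on both arrays, 21.1% were lower and 18.0% were higher by that threshold. The median difference was -0.06 over the 22, with 13 below 0 and 9 above, and 0.02 over all 261. The size of the difference, whatever its sign, had a median of 0.94 over the 22, against 0.70 over all 261, 0.39 over the 106 miRNAs numbered under 1000 (let-7 included), 1.30 over the 49 numbered from 4000 to below 5000 and 1.11 over the 15 numbered 7000 or higher. The value of the 22 thus lay above that of the numbers under 1000 and below those of the numbers from 4000 to below 5000 and of 7000 or higher; miRNAs from 6700 to below 7000 were not set apart. With miRNAs detected on 1 array only included, 9 of the 34 detected miRNAs (26.5%) were higher and 11 (32.4%) lower, against 33.9% higher and 25.2% lower over all 457 miRNAs detected on at least 1 array. Without scaling between the arrays, 16 were higher and 7 lower, against 223 and 63 over all miRNAs.

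**Figure D3:**
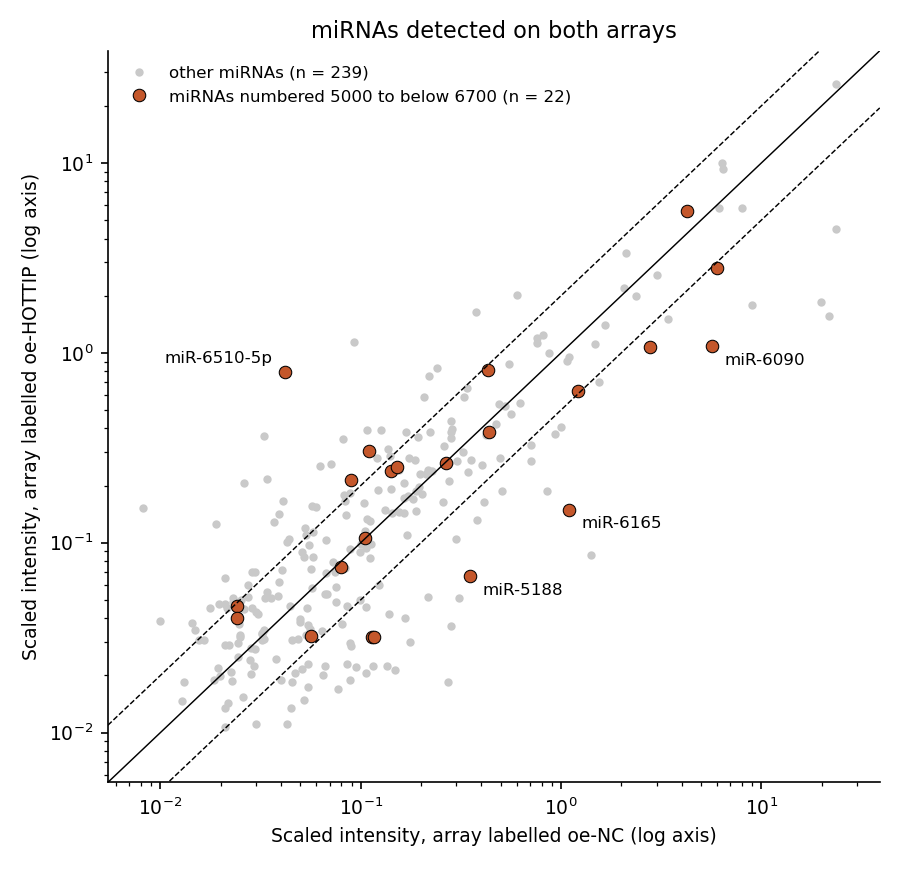
Scaled intensity on the array titled oe-HOTTIP (vertical, log axis) against that on the array titled oe-NC (horizontal, log axis) of the 261 miRNAs detected on both arrays; the solid line marks equal values and the dashed lines a 2-fold difference. miR-6510-5p lies far above the upper dashed line, while miR-6165, miR-5188 and miR-6090 lie below the lower one.

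miR-6510-5p had the largest difference of the 22, and none of the 261 miRNAs detected on both arrays was higher by more. Its intensity was 11.8 ± 2.78 (SD, 16 spots) on the array titled oe-NC, where 9 of these spots were well above background, and 350.1 ± 33.1 (SD, 19 spots) on the array titled oe-HOTTIP, where all 19 were. The log2 difference was 4.24 (spread 0.37), or 19.0-fold, and its probes gave 4.13 and 4.51. The probe with 4.51 read 6.34 on the array titled oe-NC, below the mean plus 2 SD of the negative control spots there (8.62), so its difference rests on a signal not above those spots, while the other probe read 17.2. The other arm, miR-6510-3p, was detected on neither array, at -1.39 ± 1.36 (SD, 19 spots) and -0.62 ± 1.82 (SD, 20 spots) after subtraction of the background. Over 14 other ways of processing the difference of miR-6510-5p ranged from 1.98 to 4.90 and stayed above 2-fold. These 14 include the authors' normalized table with its columns exchanged (4.48). They leave out that table with its columns as named, where the difference has the same size and the opposite sign.

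The mature miRNA of the array that shares the longest run of bases with miR-6510-5p is miR-7110-5p, and it is shown here because it too was among the miRNAs with large differences. The shared run of 12 bases is in capitals and lies at different distances from the 5′ end, from base 6 in miR-6510-5p and from base 10 in miR-7110-5p.
miR-6510-5p: cagcaGGGGAGAGAGAGgaguc
miR-7110-5p: uggggguguGGGGAGAGAGAG

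miR-7110-5p had an intensity of 25.8 ± 4.16 (SD, 20 spots) on the array titled oe-NC and 499.6 ± 44.7 (SD, 20 spots) on the array titled oe-HOTTIP, a log2 difference of 3.62 (spread 0.27). The 12 bases are longer than the longest run that any of the other 19 miRNAs with a sequence shared with another miRNA of the array, which was from 8 to 11 bases. Whether a probe of the one miRNA also binds the other was not tested, and the probe sequences were not analysed here. Only 1 sharing miRNA was kept for each miRNA, the last by name where runs were equally long. For the runs of 11 bases, those kept for miR-6069, miR-6085 and miR-6089 were detected on neither array. miR-6127 (-0.18) shared 11 bases with miR-8071, which was detected only on the array titled oe-HOTTIP. Runs of 10 bases joined miR-5787 (-0.02) to miR-8072 (1.35) and miR-6165 (-2.88) to miR-5006-5p, detected only on the array titled oe-HOTTIP. Another joined miR-6515-3p (-1.88) to miR-6798-3p, detected only on the array titled oe-NC. The other miRNAs kept at 10 bases were detected on neither array. miR-6089 and miR-6090, both called lower, share 10 bases too. Whether shared runs go with shared differences was not tested.

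Of the other miRNAs that were higher on the array titled oe-HOTTIP, miR-6126 had an intensity of 31.0 ± 5.81 (SD, 20 spots) on the array titled oe-NC and 133 ± 17.3 (SD, 18 spots) on the array titled oe-HOTTIP. Its log2 difference was 1.46 (spread 0.33), and its probes gave 0.24 and 1.67, so that the size, though not the sign, came from 1 probe. With the normexp background correction and an offset of 50 it was 0.54. miR-5703 went from 25.1 ± 7.62 (SD, 20 spots) to 94.2 ± 14.9 (SD, 20 spots), a log2 difference of 1.26 (spread 0.49), and its probes gave 1.24 and 1.28. It was under 2-fold with quantile normalization (0.96), with normexp and the offset (0.32) and in the authors' normalized table read with its columns exchanged (0.93).

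miR-6165 had the largest difference among the lower miRNAs. Its intensity was 307 ± 65.2 (SD, 18 spots) on the array titled oe-NC and 65.7 ± 7.70 (SD, 20 spots) on the array titled oe-HOTTIP. The log2 difference was -2.88 (spread 0.35), or 7.35-fold lower, and its probes gave -3.15 and -2.62. It therefore stood opposite to miR-6510-5p, with which it shares its first 7 bases.

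miR-5188 and miR-6090 followed, each about 5-fold lower on the array titled oe-HOTTIP. miR-5188 went from 98.2 ± 33.9 (SD, 20 spots) to 29.3 ± 5.56 (SD, 20 spots), a log2 difference of -2.39 (spread 0.57). miR-6090 went from 1592 ± 110 (SD, 20 spots) to 478 ± 42.0 (SD, 20 spots), also a log2 difference of -2.39 (spread 0.16). The probes of each agreed closely, at -2.46 and -2.33 for miR-5188 and at -2.33 and -2.43 for miR-6090. Over the 14 other ways of processing, miR-6165, miR-5188 and miR-6090 kept a difference of at least 2-fold, with ranges from -3.08 to -2.10, from -2.57 to -1.41 and from -2.56 to -1.71.

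**Figure D4:**
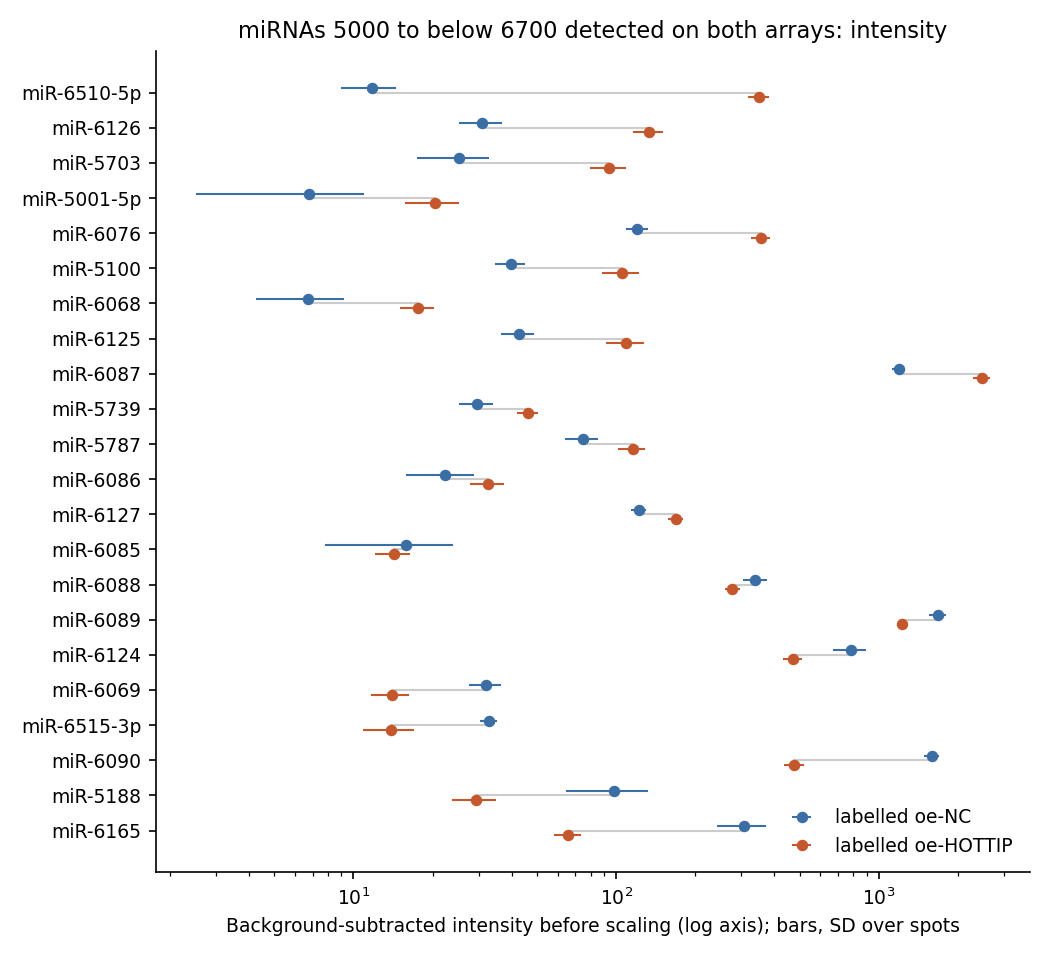
Background-subtracted intensity before scaling (horizontal, log axis) of the 22 miRNAs detected on both arrays, on the array titled oe-NC (blue) and on the array titled oe-HOTTIP (orange), with bars for the SD over spots. The order from top to bottom is that of the scaled difference; intensities of different miRNAs come from different probes and are not comparable with each other.

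miR-6515-3p and miR-6069 were lower by a smaller amount. miR-6515-3p went from 32.8 ± 2.37 (SD, 20 spots) on the array titled oe-NC to 13.9 ± 3.08 (SD, 20 spots) on the array titled oe-HOTTIP, a log2 difference of -1.88 (spread 0.34). miR-6069 went from 32.0 ± 4.53 (SD, 20 spots) to 14.0 ± 2.31 (SD, 20 spots), a log2 difference of -1.84 (spread 0.31). The probes of each gave nearly the same difference, -1.91 and -1.86 for miR-6515-3p and -1.90 and -1.77 for miR-6069. With normexp and an offset of 50 they came to -0.91 and -0.90, under 2-fold.

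miR-6124 and miR-6089 lay closer to the threshold. miR-6124 went from 781 ± 112 (SD, 20 spots) to 471 ± 38.9 (SD, 20 spots), a log2 difference of -1.38 (spread 0.24), and its 3 probes ranged from -1.61 to -1.11. It was -0.73 without scaling and -0.89 with detection by over 50% of the spots. miR-6089 went from 1683 ± 124 (SD, 19 spots) to 1225 ± 50.8 (SD, 18 spots), a log2 difference of -1.11 (spread 0.12). Its probes disagreed in sign, at 0.61 and -1.46, a gap of 2.07, the largest among the 22. It was under 2-fold in 4 of the 14 other settings and turned to 0.072 with quantile normalization, so that its direction was not settled.

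**Figure D5:**
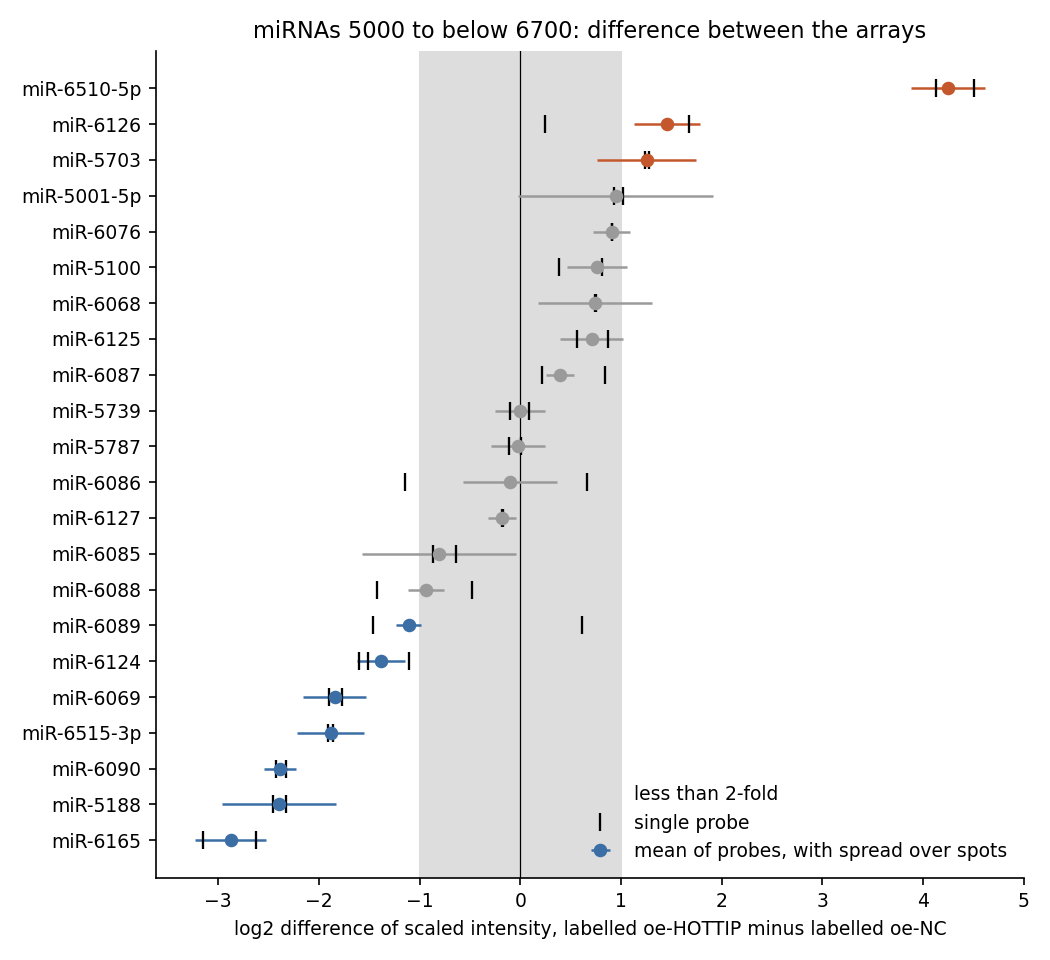
log2 difference of scaled intensity (horizontal axis, array titled oe-HOTTIP minus array titled oe-NC) of the 22 miRNAs detected on both arrays; circles are means of the probes (blue lower, orange higher, grey under 2-fold), bars the spread over spots and vertical ticks single probes. The ticks of miR-6089 and miR-6086 lie far apart on both sides of 0, while those of miR-5703, miR-6515-3p and miR-6127 nearly coincide.

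The remaining 12 of the 22 miRNAs were within 2-fold. miR-5739 and miR-5787 were at -0.0024 and -0.02 with spreads of 0.25 and 0.27. miR-5739 had intensities of 29.6 ± 4.31 (SD, 19 spots) and 46.3 ± 4.24 (SD, 17 spots), and miR-5787 of 74.7 ± 10.7 (SD, 20 spots) and 116 ± 13.4 (SD, 20 spots). The probes gave -0.10 and 0.09 for miR-5739, and -0.12 and 0.0073 for miR-5787. Both thus had differences smaller than their spread.

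miR-6127 was nearly level as well, with intensities of 122 ± 8.36 (SD, 17 spots) and 169 ± 11.1 (SD, 18 spots) and a log2 difference of -0.18 (spread 0.14). For miR-6086 the intensities were 22.3 ± 6.41 (SD, 19 spots) and 32.6 ± 4.84 (SD, 19 spots), with a log2 difference of -0.10 and a spread of 0.47. Its probes pointed in opposite directions, at 0.67 and -1.14, and the difference was 0.77 from the brighter probe and 0.55 without scaling. miR-5739, miR-5787, miR-6086 and miR-6089 were the 4 miRNAs of the 22 whose probes disagreed in sign.

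On the lower side, miR-6088 had a log2 difference of -0.94 (spread 0.18), from 339 ± 35.2 (SD, 19 spots) to 277 ± 18.1 (SD, 20 spots), and was just past 2-fold with the 90th percentile over all miRNAs (-1.11). Its probes gave -1.43 and -0.48. miR-6085, at 15.9 ± 8.06 (SD, 20 spots) and 14.2 ± 2.17 (SD, 18 spots), had a log2 difference of -0.81 (spread 0.76).

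On the higher side, miR-6076 went from 121 ± 11.6 (SD, 20 spots) to 356 ± 29.5 (SD, 20 spots), a log2 difference of 0.91 (spread 0.18) and the same value from both probes. miR-5100 went from 39.7 ± 5.20 (SD, 18 spots) to 105 ± 16.9 (SD, 19 spots), a difference of 0.76 (spread 0.30). miR-6125 went from 42.6 ± 6.14 (SD, 19 spots) to 109 ± 17.9 (SD, 20 spots), a difference of 0.71 (spread 0.31). These 3 differed by more than their spread but not by 2-fold.

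miR-6087 went from 1194 ± 69.8 (SD, 18 spots) to 2465 ± 188 (SD, 20 spots), a log2 difference of 0.40 (spread 0.14), and its probes gave 0.85 and 0.21. It reached 2-fold with quantile normalization (1.17) and without scaling. miR-5001-5p and miR-6068 were dim on the array titled oe-NC, at 6.76 ± 4.25 (SD, 20 spots) and 6.72 ± 2.45 (SD, 20 spots), below the mean plus 2 SD of the negative control spots there, 8.62. On the array titled oe-HOTTIP they stood at 20.5 ± 4.72 (SD, 20 spots) and 17.6 ± 2.57 (SD, 19 spots), with log2 differences of 0.95 and 0.74 and spreads of 0.97 and 0.57. Both turned below 0, to -0.28 and -0.35, with normexp and an offset of 50, while miR-6068 reached 1.45 with the summed intensity.

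A miRNA detected on 1 array only has no measured fold. Its fold can only be bounded from below, by setting its signal against its own value on the other array or against the dimmest detected miRNA there, whichever was brighter. Of the 12 bounds, 7 pointed to the array titled oe-HOTTIP and 5 to the array titled oe-NC, and 6 and 4 of them were at least 2-fold. Over all miRNAs, 129 were detected only on the array titled oe-HOTTIP and 67 only on the array titled oe-NC. Of all 155 miRNAs called higher, 47 were detected on both arrays, as were 55 of all 115 called lower, and the rest were bounds. The dimmest detected miRNAs, at 0.976 on the array titled oe-NC and 2.43 on the array titled oe-HOTTIP, lay below the mean of the negative control spots, 3.87 ± 2.37 (SD, 976 spots) and 3.45 ± 2.21 (SD, 975 spots). Against a higher floor, the signal above which most miRNAs of that brightness were detected (at least 50% of 51 neighbours in rank, 5.32 and 6.44), a bound could be given for 7 of the 12 and none reached 2-fold, so that the counts with bounds fell to 3 higher and 7 lower. Over all miRNAs the counts with bounds fell to 86 higher and 88 lower.

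Of the miRNAs detected only on the array titled oe-HOTTIP, miR-5194 had the largest bound, at least 4.27-fold higher, with intensities of 0.33 ± 1.67 (SD, 19 spots) and 6.54 ± 1.67 (SD, 18 spots). miR-5088-5p had a bound of 3.48-fold, with 1.96 ± 2.05 (SD, 18 spots) and 10.7 ± 2.46 (SD, 20 spots), and of 1.28-fold with the higher floor. miR-6133 had a bound of 2.64-fold, with 2.57 ± 1.79 (SD, 19 spots) and 10.7 ± 3.03 (SD, 18 spots), and also of 1.28-fold with the higher floor. For miR-5194 no bound could be given with the higher floor, and its bound came to 0.14 on the log2 scale from the brighter probe and to 0.11 in the normalized table with its columns exchanged. On the array titled oe-HOTTIP, miR-5194 lay below the mean plus 2 SD of the negative control spots (7.87). miR-5088-5p and miR-6133 lay above that limit, with 6 of 20 and 6 of 18 spots well above background.

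For miR-6515-5p, miR-6499-5p and miR-5093 the bounds were 2.78-fold, 2.45-fold and 2.29-fold, and no bound could be given with the higher floor. The signal of each came mainly from 1 probe, since on the array titled oe-HOTTIP the probes read 14.2 and 0.89 for miR-6515-5p, 10.9 and -3.41 for miR-6499-5p and 8.29 and -1.27 for miR-5093. miR-5006-5p had 17.6 ± 3.55 (SD, 19 spots) there against 5.93 ± 1.93 (SD, 17 spots) on the array titled oe-NC. Its bound, taken against its own signal, was 1.89-fold with either floor.

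Of the miRNAs detected only on the array titled oe-NC, miR-6070 went from 8.18 ± 4.20 (SD, 20 spots) to 0.87 ± 1.44 (SD, 19 spots), at least 5.28-fold lower on the array titled oe-HOTTIP, or 1.99-fold with the higher floor. miR-5196-5p went from 7.87 ± 2.26 (SD, 18 spots) to 2.51 ± 1.93 (SD, 19 spots), with bounds of 4.91-fold and 1.92-fold. The bounds of miR-6507-3p, miR-6511b-3p and miR-6508-5p were 2.68-fold, 2.17-fold and 1.90-fold. Against the higher floor, that of miR-6507-3p was 1.79-fold and that of miR-6508-5p 1.56-fold, and none could be given for miR-6511b-3p. All 5 miRNAs had an intensity under 8.62 on the array titled oe-NC, the mean plus 2 SD of its negative control spots.

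Both arms of 52 hairpins were on the array, and for 10 of these hairpins at least 1 arm was detected. Only miR-6515 had both arms detected, and they pointed in opposite directions. Its 3p arm had the log2 difference of -1.88 given above, while its 5p arm was detected only on the array titled oe-HOTTIP, at 7.52 ± 2.73 (SD, 20 spots) against 1.73 ± 2.40 (SD, 19 spots) on the array titled oe-NC. The direction of the 5p arm rests on a dim signal and on 1 probe. In the other 9 hairpins the second arm had a signal between -2.82 and 1.21 on both arrays, within the range of the miRNAs detected on neither array.

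The range holds 3 lettered families with 9 members. miR-5681a and miR-5681b, and miR-5692a, miR-5692b and miR-5692c, were detected on neither array. Of miR-6511a and miR-6511b, each with both arms, only miR-6511b-3p was detected, at 3.36 ± 1.63 (SD, 20 spots) on the array titled oe-NC and 0.48 ± 1.69 (SD, 20 spots) on the array titled oe-HOTTIP. On the array titled oe-NC its probes read 6.94 and -0.22.

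The 155 miRNAs detected on neither array had intensities from -3.78 to 5.03 with a median of -0.92 on the array titled oe-NC, and from -3.39 to 6.16 with a median of -0.68 on the array titled oe-HOTTIP. None of them exceeded the mean plus 2 SD of the negative control spots, 8.62 and 7.87. No fold is given for them, and a level below background does not show that a miRNA was absent from the exosomes.

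The authors' normalized table was read for the same miRNAs. In it, 29 of the 189 had a value above the floor in the oe-NC column and 26 in the oe-HOTTIP column. Across these miRNAs, for the column named oe-NC Spearman's rho was 0.84 with the summed intensities of its own array and 1.00 with those of the other array, and for the column named oe-HOTTIP it was 0.78 and 1.00. These rank correlations run across miRNAs of 1 array, which are not independent replicates. With the columns as named, 9 miRNAs were at least 2-fold higher and 6 lower for oe-HOTTIP, and with the columns exchanged 6 were higher and 9 lower. Over all miRNAs, the table with its columns exchanged gave 103 higher and 104 lower. Of the 10 miRNAs detected on both arrays and called from the scanner output, 8 had the same call in the exchanged table, all but miR-5703 and miR-6089.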

How the data were processed

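Exosomal RNA (200 ng per array, per the labels) was labelled with Cy3 and hybridized to 1 array per group. The authors deposited the scanner output, written by Agilent Feature Extraction (10.10 per the labels, 11.5.1.1 per the file headers), with intensity values and other per-spot flags for outliers, saturation and detection, and a table of log2 values that the methods describe as normalized to the 90th percentile in GeneSpring. The scale of that table is not stated in it.

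Spots with an outlier flag (114 and 126 of 3780 spots per array for these 189 miRNAs) were left out, and no spot was saturated. Spots were averaged per probe (2 to 4 probes per miRNA) and probes per miRNA. A difference was called at 2-fold, the threshold of the methods. The named miRNAs are all 22 detected on both arrays, the largest bounds, and the other arms and letters of these. The members, lists and alternatives were chosen with earlier results of these data known. The alternatives were 5 other scalings, normexp with and without an offset of 50, the summed intensity, the brightest probe, outlier spots kept, detection taken as over 50% of spots being well above background, a filter on dim miRNAs, a higher floor for bounds, and the normalized table. The comparison was tested on simulated data with known changes in brighter miRNAs taken as detected on both arrays, with noise over spots only. Bounds, dim miRNAs and variation between arrays were not part of that test. With 1 array per group, replicate checks do not apply, and the number of arrays and the signal over background limit the precision. Tables were made in Python 3.11.15 with pandas 2.3.3 and numpy 2.4.6, normexp and quantile values in R 4.3.3 with limma 3.58.1, and plots with matplotlib 3.10.9.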

Additional observations from a re-analysis of the deposited data

How the results depend on the processing

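No paired analysis was possible because there is a single array in each group. Against 9 miRNAs at least 2-fold higher and 11 lower, no scaling gave 16 and 7, normexp with an offset of 50 gave 1 and 5, normexp without an offset gave 3 higher, the brightest probe 7 lower, detection by over 50% of the spots 5 lower, the filter on dim miRNAs 5 and 7, the higher floor 3 and 7, and the normalized table with its columns as named 6 lower. The other counts were within 1.5 times. Over all miRNAs, the main counts were 155 higher and 115 lower. For these, no scaling gave 223 and 63, normexp with an offset of 50 gave 8 and 26, and normexp without an offset 53 higher. The brightest probe gave 88 lower, detection by over 50% of the spots 39 lower, the filter 127 and 85, and the higher floor 86 and 88. The median difference of -0.06 came to 0.59 without scaling and to 0.39 with detection by over 50% of the spots (over 19 miRNAs), and lay between -0.34 and 0.19 in the other settings. miR-6089 turned from -1.11 to 0.072 with quantile normalization, and the cause was not tested. No other called miRNA detected on both arrays changed sign with the table's columns exchanged or in the settings of the scanner output. A bound was kept only in the direction of the array that detected the miRNA, so the bounds say nothing about changes of sign. The 10 called miRNAs detected on both arrays kept their calls in 9 of the 14 settings (the filter and the higher floor leave bright miRNAs as they are), and 8, 8, 6, 8 and 8 of them did with quantile normalization, no scaling, normexp with the offset, detection by over 50% of the spots and the exchanged table. Of the 10 called bounds, none stayed past 2-fold with the higher floor, the brightest probe, normexp with the offset or detection by over 50% of the spots. Signals near the negative control spots limit every bound.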

Other observations

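Some seeds were shared with other miRNAs of the array. Of the 20 miRNAs detected on both arrays that had a sequence, miR-5001-5p, miR-5703, miR-5787 and miR-6076 each shared their seed with 1 other miRNA detected on both arrays. miR-5001-5p (0.95) and miR-762 (1.04), with the seed GGGCUGG, both had positive differences (array titled oe-HOTTIP minus array titled oe-NC) on the scaled log2 scale. That of miR-5001-5p was within its spread of 0.97, rested on a signal of 6.76 on the array titled oe-NC, below the negative control limit of 8.62, and was -0.28 with normexp and an offset of 50. miR-762 had intensities of 24.9 ± 4.72 (SD, 20 spots) on the array titled oe-NC and 80.2 ± 7.67 (SD, 20 spots) on the array titled oe-HOTTIP. miR-6076 (0.91) and miR-6797-3p (-1.24), with the seed GCAUGAC, stood on opposite sides of 0, and miR-6797-3p went from 14.3 ± 2.65 (SD, 20 spots) to 9.51 ± 2.16 (SD, 19 spots). miR-5703 (1.26) and miR-4516 (-0.25, spread 0.20), with the seed GGAGAAG, also lay on opposite sides of 0 after scaling. Before scaling miR-4516 was brighter on the array titled oe-HOTTIP, at 397 ± 40.8 (SD, 20 spots) against 300 ± 28.2 (SD, 20 spots). With the seed GGCUGGG, miR-5787 was at -0.02, within its spread of 0.27, and miR-4505 at 0.91. miR-6088 has the seed GAGAUGA of miR-143-3p, a miRNA of smooth muscle and stromal cells, which was detected on neither array.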
